A study of Mus musculus with 15 samples.

Results

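Macrophages of white fat were set against macrophages of the brain, gene by gene. The comparison used 7 of the 15 libraries of a low-input RNA-seq series on cells positive for the surface proteins F4/80 and CD45, sorted from C57BL/6J mice and profiled ex vivo. On the fat side stood 2 libraries of subcutaneous fat macrophages (sATM) and 2 libraries of visceral fat macrophages (vATM), which the labels describe as anti-inflammatory macrophages of white adipose tissue. On the other side stood 3 libraries of brain macrophages, labelled microglia. The fat value is the equally weighted mean of the sATM and vATM groups, taken from the table in which the authors had removed DNA contamination. All 7 titles carry the letters ND, which the labels do not expand. The labels of these groups name no transgene, Cre driver, drug, age or sex. Tissue came from 10 mice. The labels do not tie libraries to animals, so a p-value here speaks only to how far libraries of a group lie apart, and part of that distance may be technical. Brain and both fats went through the same step of 30 minutes in collagenase at 37 °C. The other 8 libraries, of spleen, sympathetic ganglia and nerve fibers, entered the filter on low counts, the scaling and the estimate of the spread. In all, 15289 of 24084 genes had enough counts to be tested, against 12677 with the 7 libraries alone.

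Microglia settle in the brain before birth and maintain themselves there, and their identity depends on local signals such as TGF-beta and on transcription factors such as Sall1. Macrophages of white fat live beside adipocytes, vessels and nerves, take up lipid and dying cells, and include long-lived resident cells as well as cells renewed from blood monocytes. F4/80 and CD45 are carried by both kinds of cell and do not separate them.

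Library totals on the 2 sides ran from 2546393 to 12515863 estimated counts, of which 46.1% to 71.5% fell on the few genes that collect ribosomal RNA reads. In the raw table, olfactory receptor genes, which macrophages are not known to use, held 33.1 to 1085 RPM (reads per 1000000) in microglia and 32.9 to 312 in fat, lowest in replicate 1 of each group. Across all genes tested, log2 CPM (counts per 1000000, on TMM-scaled library sizes) correlated at 0.734 to 0.896 between microglia libraries, at 0.880 between the sATM libraries and at 0.942 between the vATM libraries. Pairs of 1 fat and 1 microglia library correlated at 0.583 to 0.846, and the lowest values within microglia were those of replicate 2. The sATM replicate 1 library stood apart by markers of blood cells. Ace, a marker of patrolling monocytes, was at 344 and 7.82 CPM in sATM, 1.92 and 2.83 in vATM and 3.37, 0 and 4.56 in microglia, and the summed erythroid markers reached 372 CPM there against 25.2 to 142 CPM in the other 6 libraries.

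The antigens of the sort were measured first. Adgre1, which encodes F4/80, was at 129 and 193 CPM in sATM, 154 and 194 CPM in vATM and 202, 176 and 184 CPM in microglia. The groups overlapped, and its log2 fold change of -0.16 ± 0.23 (SE) between fat and microglia did not pass the test (edgeR quasi-likelihood test, Benjamini-Hochberg adjusted p = 0.67). Ptprc, which encodes CD45, was at 951 and 417 CPM in sATM, 389.8 and 345 CPM in vATM and 220.2, 134 and 167 CPM in microglia. It was higher in every fat library than in every microglia library, by 1.53 ± 0.30 on the log2 scale (edgeR adjusted p = 0.0025), with sATM replicate 1 the highest. Without that library the difference was 1.27 (edgeR adjusted p = 0.014). On log2(RPKM + 0.1) its difference was 1.03 (limma adjusted p = 0.054) and no longer passed, and it did not pass in the raw gene-body table. Against microglia, sATM alone differed by 1.98 (edgeR adjusted p = 0.0012). The difference of vATM alone was 1.08 and did not pass (edgeR adjusted p = 0.065).

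The 4 genes taken as markers of the 2 sides separated them without overlap. Retnla (resistin-like alpha, a secreted protein of alternatively activated macrophages; chr16:48842552-48844461, mm10) was at 837 and 4602 CPM in sATM, 9629 and 6119.5 CPM in vATM and 0.433, 0.561 and 0 CPM in microglia. The fat libraries differed among themselves, with sATM replicate 1 lowest, and each still lay far above microglia. The log2 fold change was 13.74 ± 1.18 (edgeR adjusted p = 6.6e-07), and the raw gene-body table held 8, 15 and 9 reads of Retnla in the microglia libraries against 5361 to 128700 in fat. F13a1, the A subunit of coagulation factor XIII (chr13:36867178-37049213), was at 492 and 648 CPM in sATM, 884 and 799 CPM in vATM and 13.9, 3.09 and 6.99 CPM in microglia, a log2 fold change of 6.37 ± 0.43 (edgeR adjusted p = 7.9e-07). P2ry12, the ADP receptor through which microglial processes find injury (chr3:59216271-59262831), was at 7.13 and 11.5 CPM in sATM, 30.3 and 30.4 CPM in vATM and 4729.5, 3623 and 3445 CPM in microglia. Its log2 fold change was -7.86 ± 0.27 (edgeR adjusted p = 1.9e-09), with vATM above sATM. Tmem119, a transmembrane protein used to tell microglia from other brain macrophages (chr5:113793729-113800352), was at 0 and 1.03 CPM in sATM, 0.838 and 0.737 CPM in vATM and 1056, 1419 and 1579 CPM in microglia. All 4 fat libraries were near zero, and the log2 fold change was -10.83 ± 0.50 (edgeR adjusted p = 8.1e-09). From bulk libraries, fewer cells that express a gene and less RNA per cell cannot be told apart, here or in any result below.

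**Figure D1:**
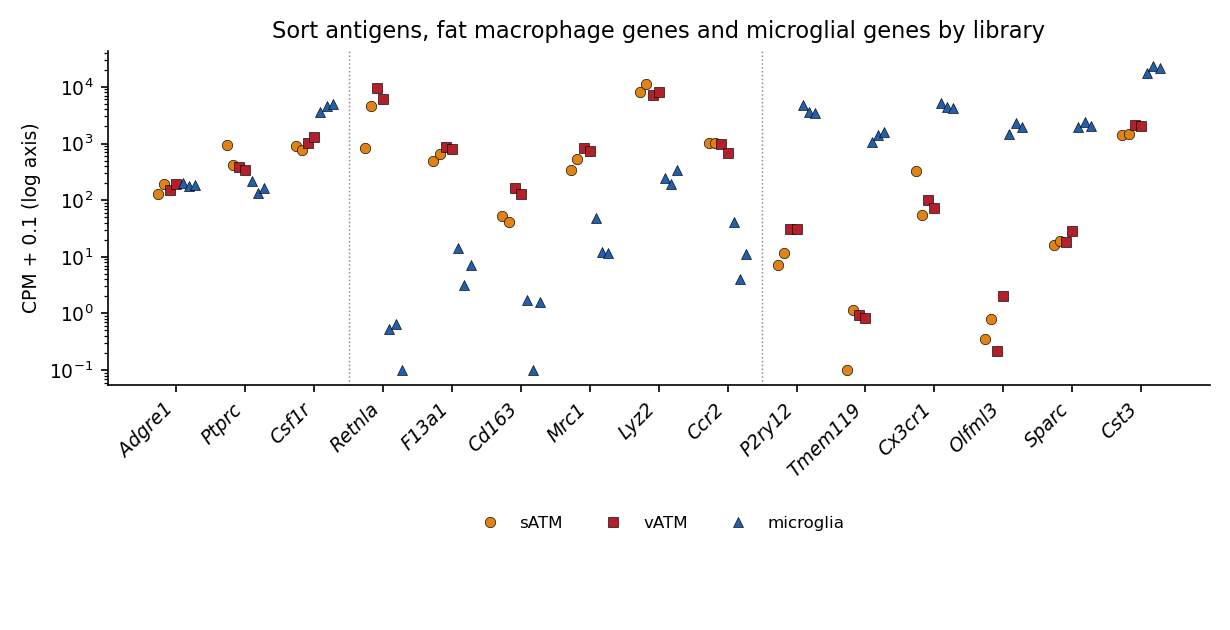
CPM + 0.1 on a log axis (y) of the sort antigens, genes of fat macrophages and genes of microglia (x, separated by dotted lines); each point is 1 library, circles sATM, squares vATM, triangles microglia. Adgre1 overlaps between the sides, whereas for Retnla the fat libraries lie at 837 to 9629 CPM and microglia at or below 0.561 CPM, and for P2ry12 microglia lie at 3445 to 4729.5 CPM and fat at or below 30.4 CPM.

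The windows upstream of 4 of the most different genes are shown because they differ in which motifs they hold. Each is the 250 bases before the RefSeq transcription start (GRCm38.p6, which is mm10), 5′ to 3′ on the strand of the gene. Capitals mark matches, on either strand, to GAGGAAGT (a PU.1 motif), TGANTCA (AP-1), TTCNNNGAA (STAT) or CAGACA (SMAD); none of these overlap in the windows shown. Retnla (chr16:48842359-48842608, plus strand) and Ecm1 (chr3:95739570-95739819, minus strand) were higher in fat, and P2ry12 (chr3:59262986-59263235, minus strand) and Slc2a5 (chr4:150119094-150119343, plus strand) were higher in microglia. The window of P2ry12 ends 154 bases from the start in the deposited table, that of Retnla 57 bases, and the others at it.
Retnla: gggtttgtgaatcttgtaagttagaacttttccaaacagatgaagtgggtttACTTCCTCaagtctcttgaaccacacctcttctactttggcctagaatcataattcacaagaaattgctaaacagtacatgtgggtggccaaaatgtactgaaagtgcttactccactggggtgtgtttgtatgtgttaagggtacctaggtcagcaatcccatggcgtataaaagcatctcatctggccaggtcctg
Ecm1: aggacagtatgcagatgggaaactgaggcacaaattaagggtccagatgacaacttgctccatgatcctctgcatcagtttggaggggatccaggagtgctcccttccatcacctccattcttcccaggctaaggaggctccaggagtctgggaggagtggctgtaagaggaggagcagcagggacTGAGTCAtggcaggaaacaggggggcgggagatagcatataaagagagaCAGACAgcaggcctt
P2ry12: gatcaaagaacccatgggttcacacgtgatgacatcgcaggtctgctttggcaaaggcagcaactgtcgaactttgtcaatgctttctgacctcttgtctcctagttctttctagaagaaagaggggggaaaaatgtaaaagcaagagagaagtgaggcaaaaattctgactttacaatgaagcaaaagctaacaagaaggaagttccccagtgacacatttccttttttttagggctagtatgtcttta
Slc2a5: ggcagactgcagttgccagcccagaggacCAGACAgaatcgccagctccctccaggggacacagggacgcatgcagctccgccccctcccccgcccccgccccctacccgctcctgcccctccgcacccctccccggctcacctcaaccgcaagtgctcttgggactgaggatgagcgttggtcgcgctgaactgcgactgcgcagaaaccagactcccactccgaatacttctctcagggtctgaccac
In Retnla the capitals are a PU.1 match read on the opposite strand that begins 198 bases before the start. In Ecm1 they are an AP-1 match at 64 and a SMAD match at 15 bases before the start, and in Slc2a5 a SMAD match at 221. The window of P2ry12 held none of these letters. A match describes the sequence and is not a measured binding site.

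Over all genes tested that had such a window (11669 of 15289), matches were counted by call, as a description without a test. The PU.1 letters were in 4.67% of the 920 windows of genes called higher in fat, 2.96% of the 744 called lower and 2.29% of the 10005 not called, against 2.35% of all 17256 windows. The AP-1 letters were in 7.61%, 3.23% and 5.25% of these 3 sets and in 6.41% of all windows. STAT letters (6.74%, 6.18% and 6.50%, against 6.88% of all) and SMAD letters (12.2%, 14.5% and 13.8%, against 14.9% of all) lay closer together. PU.1 is a lineage factor of all macrophages, and AP-1 is the Fos and Jun dimer whose genes are described below.

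Across the genome, 1225 genes were called higher in fat (8.01% of the genes tested) and 974 lower (6.37%). Genes were called at an edgeR adjusted p below 0.05 where fat and microglia lay 1 or more apart on the log2 scale. Of the 2199 called genes 55.7% were higher in fat, and the median log2 fold change of all genes tested was -0.29. Among the genes called higher, 1166 had every fat library above every microglia library, as did 15.2% of all genes tested. Among those called lower, 945 had every fat library below every microglia library, as did 15.1% of all genes tested. The counts for gene lists below stand against these shares of 8.01% and 6.37%. The change reached 4 on the log2 scale in 404 genes called higher, and -4 in 240 called lower. Against microglia, sATM alone gave 1080 genes higher (7.06%) and 712 lower (4.66%), and vATM alone 1042 higher (6.82%) and 601 lower (3.93%). These 2 comparisons share their microglia libraries. With the 7 libraries alone 1401 genes were called higher and 1256 lower, and the counts were 1174 and 668 without sATM replicate 1. Counts of lower genes leaned on single libraries. The 974 became 553 without vATM replicate 1 and 605 without vATM replicate 2, and the 712 of sATM alone became 470 without microglia replicate 1, 334 without sATM replicate 1 and 440 without sATM replicate 2. The vATM counts were 621 higher and 199 lower without vATM replicate 1, and 617 higher and 218 lower without vATM replicate 2, where the lone vATM library is assumed to vary like the other groups. Without microglia replicate 1 vATM had 399 lower genes.

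The balance of the calls depended on the table. From the deposited RPKM values, on log2(RPKM + 0.1), limma called 841 genes higher and 1385 lower, so that 37.8% of its calls were higher in fat and its median log2 difference was -0.62. From the raw gene-body counts, which hold intronic reads and the DNA that the authors later removed, edgeR called 372 higher and 125 lower, 74.8% of them higher. Of the 2198 called genes that could be tested in the raw table, 23 had the opposite sign there, 15 of which were listed at 0 in a group in the corrected table.

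**Figure D2:**
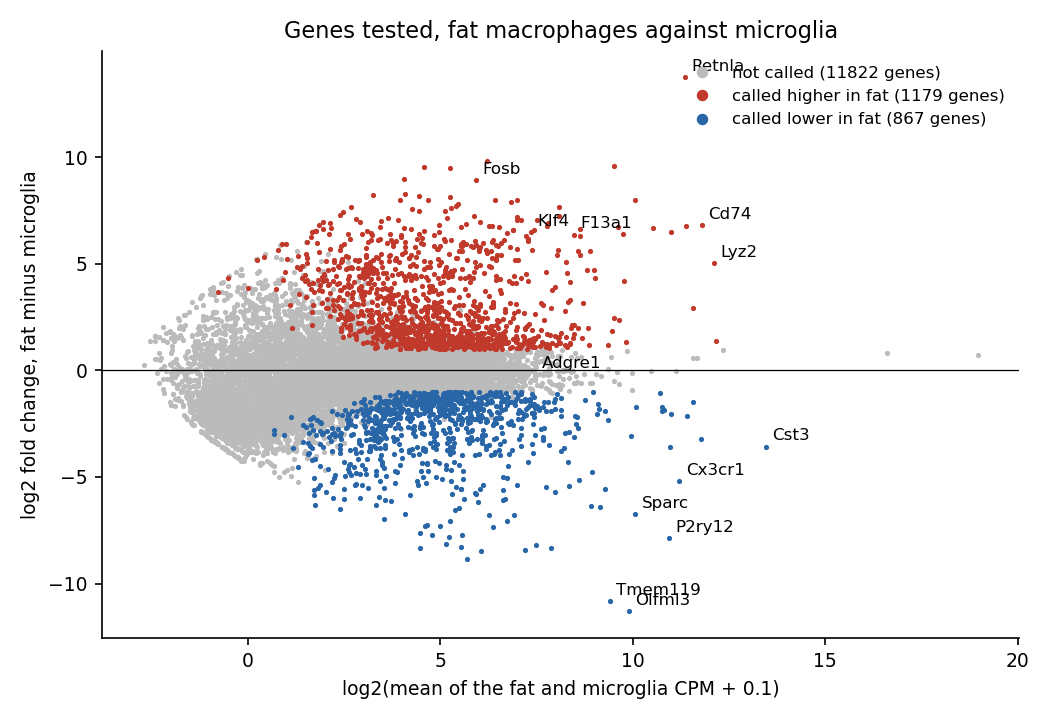
Log2 fold change, fat minus microglia (y), against log2 of the mean of the fat and microglia CPM + 0.1 (x), for the 13868 genes tested that are not listed at 0 throughout sATM, vATM or microglia. Red points are genes called higher in fat, blue points genes called lower and grey points the rest; Retnla lies at the top at 13.74 and Olfml3 at the bottom at -11.30.

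The 15 genes with the largest calls in favour of fat, among those with a mean of at least 30 CPM there and no overlap, began with Retnla and held secreted proteins, surface receptors and a Fos family gene. Ecm1, an extracellular matrix protein, was at 22.2 and 163 CPM in sATM, 268 and 144 CPM in vATM and 0.173, 0 and 0.152 CPM in microglia (log2 fold change 9.81 ± 1.24). Lyz1, a lysozyme of the gut whose sequence is close to that of Lyz2, so that reads may be split between them, was at 161 and 1536 CPM in sATM, 2296 and 1812 CPM in vATM and 1.90, 3.65 and 0 CPM in microglia (9.60 ± 0.78). In both genes sATM replicate 1 was the lowest fat library and still lay far above microglia. Ccl8, a chemokine made by resident macrophages, was at 21.4 and 139.9 CPM in sATM, 62.4 and 82.1 CPM in vATM and 0.173, 0 and 0 CPM in microglia (9.48 ± 1.35). Fn1, fibronectin, was at 855 and 2614 CPM in sATM, 2684 and 2306 CPM in vATM and 13.2, 0.842 and 8.97 CPM in microglia (8.0 ± 0.62). Cd209g, a C-type lectin next to other Cd209 genes, was at 23.9 and 39.3 CPM in sATM, 54.5 and 85.7 CPM in vATM and 0.346, 0 and 0 CPM in microglia (7.97 ± 1.24). The fat libraries spread over several-fold in Ccl8 and little in Fn1 apart from sATM replicate 1. The remaining 9 were Aim1, Sdc1, Fosb, Ms4a8a, Cd300lg, Dpep2, Plxnd1, Crip1 and Net1, with log2 fold changes of 7.98 to 9.54. Aim1, Sdc1, Ms4a8a and Net1, like Ecm1 and Ccl8, were under 3 counts in every microglia library. The size of these changes, and so the order of the genes, rests on few counts. The SE was 1.77 for Aim1 and 2.76 for Sdc1. In the raw gene-body table Aim1 held 142, 503 and 362 reads in microglia against 593 to 1007 in fat. Sdc1 and Net1 did not pass in the raw gene-body table (edgeR adjusted p = 0.21 and 0.15).

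By the same rule the 15 genes with the largest calls in favour of microglia included Sall1, Gal3st4, Slc2a5, Upk1b, Whrn, Olfml3, Tmem119, Slco4a1, Capn3, Npnt, Spsb1, Rapgef5, Mlph and Ecscr. For 12 of the 15 a whole fat depot was listed at 0, and no fold change is given. Sall1, the zinc finger factor that maintains microglial identity, was at 0.255 and 0 CPM in sATM, 0 in both vATM libraries and 384, 428 and 398 in microglia. Slc2a5, the fructose transporter, was at 0 in both sATM libraries, 0.479 and 0.614 CPM in vATM and 398, 516 and 371 in microglia. Fat libraries thus held at most traces of either gene. Olfml3, a secreted olfactomedin-like protein, was at 0.255 and 0.690 CPM in sATM, 0.120 and 1.97 CPM in vATM and 1489, 2319 and 1960.1 CPM in microglia (-11.30 ± 0.60). Ecscr, an endothelial surface protein gene also listed in microglia here, was at 0 and 0.345 CPM in sATM, 0.120 and 0.246 CPM in vATM and 99.7, 112 and 97.6 CPM in microglia (-8.86 ± 0.88). In the raw gene-body table Upk1b, Slco4a1, Npnt, Spsb1 and Mlph did not pass (edgeR adjusted p from 0.10 to 0.23).

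A listing at 0 was not always an absence of reads. Of the 25 called genes listed at 0 in all fat libraries, 7 held at least 100 raw reads in each of them, and of the 46 listed at 0 in all microglia libraries, 4 did so there. Gapdh, a glycolytic gene that all cells use, was listed at 0 in all 7 libraries. Hsp90aa1, a cytosolic chaperone, was listed at 0 in fat with 2182 to 6241 raw reads there against 188 to 590 in microglia. It was called lower in the corrected table and had a log2 difference of 4.18 in the raw one (edgeR adjusted p = 0.060). Itga9, an integrin subunit, likewise was listed at 0 in fat and at 27.9, 22.2 and 25.1 CPM in microglia, with a raw log2 difference of 0.68 (edgeR adjusted p = 0.95).

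Genes of microglial identity were, of the 28 lists of biology, the one with the largest share of members called. Of 30 tested, 29 were called lower in fat, against 6.37% of all genes tested, and none higher, and the median was -5.49 (-5.29 without the 4 listed at 0 in a group). Sparc, a secreted matrix protein, was at 15.8 and 19.2 CPM in sATM, 18.1 and 27.9 CPM in vATM and 1921, 2413 and 2057 CPM in microglia (-6.73 ± 0.25). Gpr34, a receptor for lysophosphatidylserine, was at 13.8 and 12.6 CPM in sATM, 43.5 and 53.0 CPM in vATM and 1403, 1072 and 1157 CPM in microglia (-5.59 ± 0.27). Cst3, the protease inhibitor cystatin C, was the gene with the highest RPKM in microglia, 21718 to 41123 RPKM there against 1549 to 2341 in fat, and its log2 fold change on counts was -3.58. Cst3 also ranked among the 10 highest genes of fat. Bank1 was the member that was not called. The list was chosen because these genes mark microglia, in part from earlier results on these data, so its direction is not independent evidence.

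The list of resident fat and perivascular macrophage genes had 24 of 29 members higher in fat, against 8.01% of all genes tested, and 1 lower, with a median of 5.69. It too was chosen with such results known. Cbr2, a carbonyl reductase, was at 73.8 and 147 CPM in sATM, 305 and 327 CPM in vATM and 4.41, 0.281 and 0.608 CPM in microglia (6.47 ± 0.52). Cd163, the receptor for hemoglobin bound to haptoglobin, was at 51.4 and 40.2 CPM in sATM, 162 and 126 CPM in vATM and 1.64, 0 and 1.52 CPM in microglia (6.03 ± 0.50). Mrc1, the mannose receptor CD206, was at 334 and 524 CPM in sATM, 834 and 747 CPM in vATM and 49.2, 12.1 and 11.7 CPM in microglia (4.55 ± 0.46). In all 3 genes microglia replicate 1 was the highest of its group, and the groups did not overlap. Mrc1 did not pass in the raw gene-body table (edgeR adjusted p = 0.058). Lyve1, Folr2, Timd4, Clec10a, Mgl2, Pf4 and Cd209b, d and f were also called higher. Ltc4s, leukotriene C4 synthase, was called lower, and Gas6, Stab1, Vsig4 and Maf were not called.

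**Figure D3:**
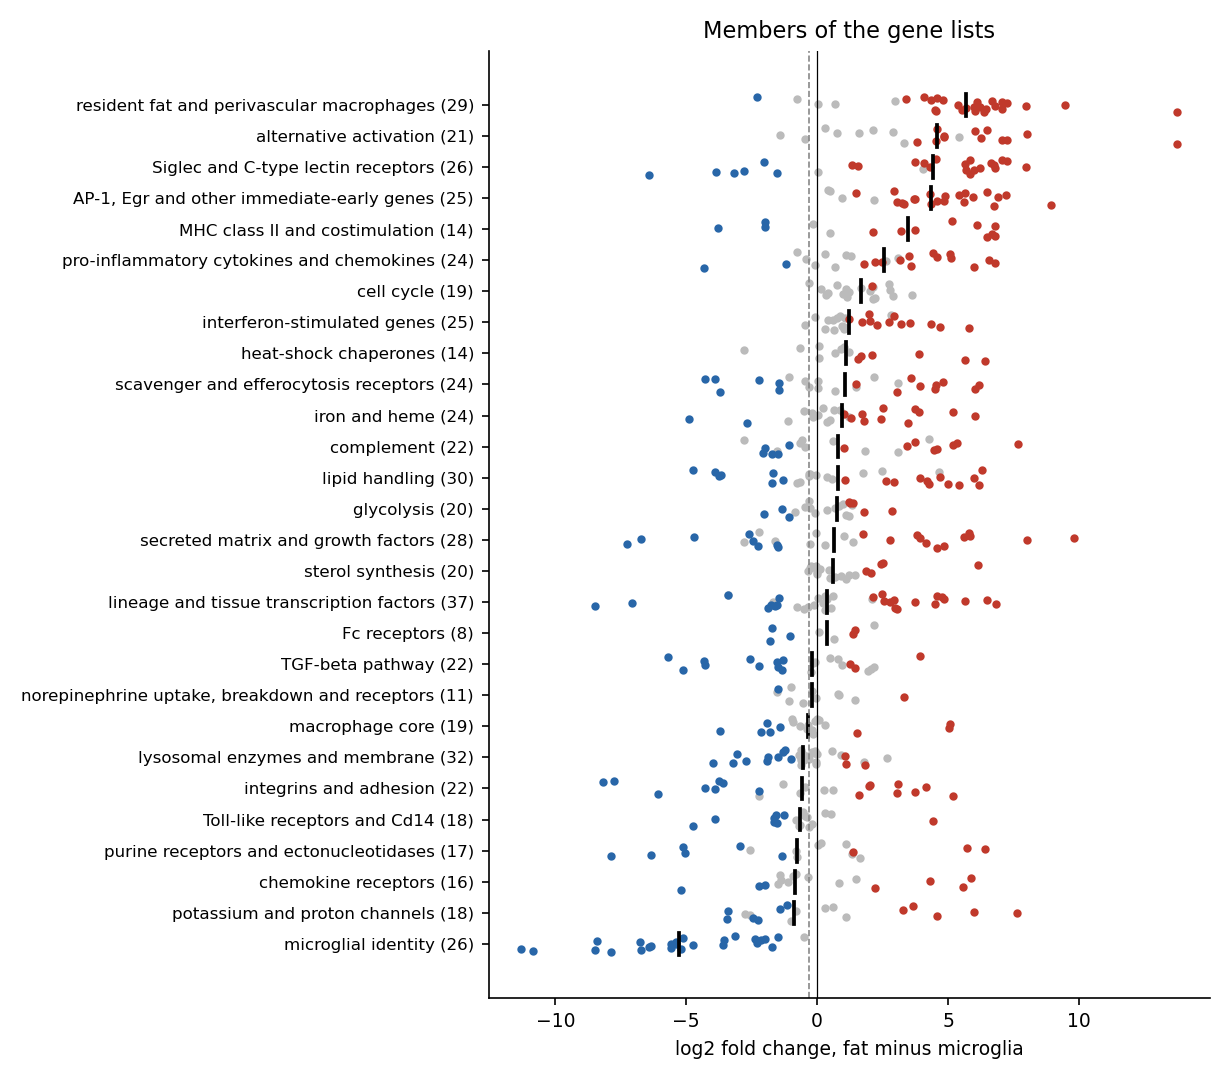
Log2 fold change, fat minus microglia (x), of the members of 28 gene lists (y; in brackets the members plotted, leaving out those listed at 0 throughout sATM, vATM or microglia). Each point is 1 gene, red called higher in fat, blue called lower, grey not called; the black bar is the list median and the dashed line the median of all genes tested, -0.29. Microglial identity genes lie at the bottom with a median of -5.29 and resident fat macrophage genes at the top with 5.69.

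Genes that macrophages of all tissues use were divided. Of 19 core genes, 3 were higher in fat, 5 lower and 11 not called, or 15.8% and 26.3% against 8.01% and 6.37% of all genes tested, with a median of -0.34. Lyz2, lysozyme of myeloid cells, was at 8006 and 11025 CPM in sATM, 7082 and 8224 CPM in vATM and 249.6, 193 and 342 CPM in microglia (5.03 ± 0.25), and ranked second in fat by RPKM after Retnla. Cybb, the membrane subunit of the phagocyte oxidase, was at 1218 and 400.1 CPM in sATM, 453 and 317 CPM in vATM and 28.3, 3.93 and 16.3 CPM in microglia (5.07 ± 0.47), highest in sATM replicate 1, and at 4.62 on the log2 scale without that library (edgeR adjusted p = 2.1e-05). Csf1r, the receptor for CSF-1 and IL-34 on which these cells depend for survival, was lower in every fat library, at 914 and 757 CPM in sATM, 1037 and 1294 CPM in vATM and 3608, 4657 and 4972 CPM in microglia (-2.16 ± 0.23). Ctss, the protease cathepsin S, was at 802 and 867 CPM in sATM, 745 and 534 CPM in vATM and 3282, 2446 and 2565 CPM in microglia (-1.92 ± 0.22). The Fc receptors also went both ways, 2 higher and 3 lower of 9. Fcgr1, the high-affinity receptor for IgG, was at 75.9 and 83.8 CPM in sATM, 56.1 and 54.7 CPM in vATM and 236, 214 and 242 CPM in microglia (-1.79 ± 0.22). Csf1r, Ctss and Fcgr1 did not pass in the raw gene-body table, where their differences were -1.45, -1.44 and -1.31.

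Among 40 lineage and tissue transcription factors, 17 were higher in fat, 9 lower and 14 not called (42.5% and 22.5%, against 8.01% and 6.37% of all genes tested), with a median of 0.45. Spi1, which encodes PU.1, was among those not called. Klf4 and Klf2, zinc finger factors of quiescence and immediate response, stood far apart between the sides. Klf4 was at 394 and 278 CPM in sATM, 363 and 274 CPM in vATM and 3.98, 3.37 and 3.50 CPM in microglia (6.48 ± 0.32), and Klf2 at 198 and 113 CPM in sATM, 155 and 104 CPM in vATM and 2.68, 1.40 and 3.95 CPM in microglia (5.67 ± 0.36). Ahr, the aryl hydrocarbon receptor, was at 110.0 and 19.9 CPM in sATM, 28.7 and 26.4 CPM in vATM and 1.73, 1.68 and 1.22 CPM in microglia (4.76 ± 0.52), highest in sATM replicate 1, and at 4.01 on the log2 scale without that library (edgeR adjusted p = 6.3e-06). On the microglial side Bhlhe41, a repressor linked to the clock, was at 1.02 and 0.115 CPM in sATM, 0.120 and 1.23 CPM in vATM and 104, 57.3 and 66.4 CPM in microglia (-7.08 ± 0.85). Pparg, the nuclear receptor of lipid-laden macrophages, was listed at 0 in all microglia libraries and at 14.3 and 16 CPM in sATM and 8.98 and 7.87 in vATM. Pparg falls outside the rule for named genes and was picked after its value was seen.

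TGF-beta signalling genes were mostly lower or not called. Of 26 tested, 10 were lower in fat, 3 higher and 13 not called, shares of 38.5% lower and 11.5% higher against 6.37% and 8.01% of all genes tested. The median was -1.32, or -0.19 without the 4 members listed at 0 in a group, close to that of all genes. The ligands Tgfb1, Tgfb2 and Tgfb3 were not called. Among receptors, Tgfbr1, the kinase subunit, was at 56.8 and 11.6 CPM in sATM, 13.8 and 13.5 CPM in vATM and 924, 674 and 659 CPM in microglia (-5.13 ± 0.38). Among activators, Itgb5, the beta chain of an integrin that frees latent TGF-beta, was at 43.8 and 25.3 CPM in sATM, 30.8 and 26.8 CPM in vATM and 494, 666 and 674 CPM in microglia (-4.28 ± 0.26). Among feedback inhibitors that TGF-beta induces, Pmepa1 was at 18.8 and 4.60 CPM in sATM, 10.2 and 6.39 CPM in vATM and 446, 598 and 457 CPM in microglia (-5.69 ± 0.44), and Smad7 at 8.66 and 1.38 CPM in sATM, 2.39 and 1.23 CPM in vATM and 73.7, 54.4 and 49.9 CPM in microglia (-4.33 ± 0.46). These 4 genes were lower in every fat library than in every microglia library. Tgfbi, a matrix protein named for its induction by TGF-beta, went the other way, at 439 and 462 CPM in sATM, 514 and 493 CPM in vATM and 38.3, 24.4 and 31.2 CPM in microglia (3.92 ± 0.23). Tgfbr1 did not pass in the raw gene-body table (edgeR adjusted p = 0.093).

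MHC class II genes, which present peptides to CD4 T cells, were among the most abundant fat transcripts. Of 14 members 9 were higher in fat and 3 lower, or 64.3% and 21.4% against 8.01% and 6.37% of all genes tested, with a median of 3.47. Cd74, the invariant chain, was at 3039.6 and 9473 CPM in sATM, 7752 and 7913 CPM in vATM and 119, 31.2 and 36.8 CPM in microglia (6.80 ± 0.46; edgeR adjusted p = 1.3e-06). H2-Ab1, a class II beta chain, was at 2172 and 6930.3 CPM in sATM, 6024 and 6076 CPM in vATM and 95.8, 25.5 and 21.0 CPM in microglia (6.78 ± 0.47), and H2-Aa, its alpha chain partner, at 1829 and 4920.4 CPM in sATM, 4364 and 4935 CPM in vATM and 99.9, 13.5 and 16.6 CPM in microglia (6.50 ± 0.52). In these 3 genes sATM replicate 1 was the lowest fat library and microglia replicate 1 the highest microglia library, and the sides still did not overlap. Ciita, the transactivator that switches the locus on, was at 121 and 214 CPM in sATM, 133 and 189 CPM in vATM and 2.51, 1.96 and 2.43 CPM in microglia (6.12 ± 0.34). The genes called lower were the peptide-loading inhibitors H2-Oa (-3.77) and H2-Ob (-1.99) and the costimulator Cd86 (-1.98), chosen here after their values were seen. Cd86 had the opposite sign in the raw gene-body table, at 0.71 on the log2 scale (edgeR adjusted p = 0.95). Dendritic cells and B cells also express class II. Of 10 dendritic cell markers, 3 were higher in fat and 2 lower, and Flt3, their growth factor receptor, was at 1.26 to 10.7 CPM in fat and 0.260 to 0.842 in microglia and not called. None of the 7 B cell markers tested was higher in fat, and 2 were lower. The part of these cells in the class II result was not tested.

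Immediate-early genes, which cells induce within minutes of stimulation and also during tissue digestion, were higher in fat almost throughout. Of 25 tested, 21 were called higher and none lower, with a median of 4.36. That is 84% higher, against 8.01% of all genes tested. Fosb, a Fos subunit of AP-1, was at 124 and 122 CPM in sATM, 130.1 and 109 CPM in vATM and 0.173, 0 and 0.456 CPM in microglia (8.93 ± 0.69; edgeR adjusted p = 2.8e-08). Dusp1, a phosphatase that shuts off MAP kinases, was at 686 and 528 CPM in sATM, 542 and 412 CPM in vATM and 5.28, 0.561 and 3.95 CPM in microglia (7.23 ± 0.38). Atf3, a stress-induced partner of AP-1, was at 1171 and 773 CPM in sATM, 561 and 509 CPM in vATM and 17.1, 14 and 13.2 CPM in microglia (5.60 ± 0.25). Zfp36, which destabilises cytokine mRNAs, was at 986 and 977 CPM in sATM, 1112 and 888 CPM in vATM and 42.9, 59.8 and 46.5 CPM in microglia (4.32 ± 0.24). The 4 fat libraries lay far from all microglia libraries in each gene. They lay close together in Fosb and Zfp36 and spread more in Dusp1 and Atf3, and in Atf3 both sATM libraries were above both vATM libraries. Egr3, Ier5, Maff and Myc were not called, and Fosl1 was not tested. The collagenase step was the same for fat and brain, and any other difference in handling between the tissues was not tested.

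Heat-shock genes gave fewer calls, 6 higher and 1 lower of 15 (40% and 6.67%, against 8.01% and 6.37% of all genes tested), with a median of 1.02. Hspa1a, the inducible HSP70, was at 1799 and 1649.8 CPM in sATM, 1637 and 1773 CPM in vATM and 18.9, 14.3 and 27.5 CPM in microglia (6.39 ± 0.29). Its neighbour Hspa1b, which is nearly identical in sequence so that reads may be split between them, was at 613 and 455 CPM in sATM, 572 and 441 CPM in vATM and 10.6, 7.30 and 13.2 CPM in microglia (5.63 ± 0.38). Both were higher in every fat library. Hsp90ab1, the constitutive HSP90, differed less, at 477 and 619 CPM in sATM, 609 and 461 CPM in vATM and 202, 141 and 159 CPM in microglia (1.69 ± 0.27), and did not pass in the raw gene-body table (2.29, edgeR adjusted p = 0.38). The only member called lower was Hsp90aa1, whose listing at 0 is described above.

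Of 26 pro-inflammatory cytokine and chemokine genes, 13 were higher in fat and 2 lower (50% and 7.69%, against 8.01% and 6.37% of all genes tested), with a median of 2.33. Il1b, interleukin 1 beta, was at 245 and 181 CPM in sATM, 170.0 and 153 CPM in vATM and 3.63, 1.68 and 3.04 CPM in microglia (5.98 ± 0.44). Ccl2, which draws monocytes through CCR2, was at 41.3 and 202 CPM in sATM, 197 and 203 CPM in vATM and 2.51, 0 and 0.912 CPM in microglia (6.79 ± 0.65), lowest among fat libraries in sATM replicate 1. Nfkbiz, an inhibitor-like cofactor of NF-kappa-B, was at 315 and 149 CPM in sATM, 243 and 208 CPM in vATM and 12, 11.2 and 8.66 CPM in microglia (4.42 ± 0.36). Ccl9 (3.18 ± 0.38) and Ccl3 (2.47 ± 0.30) differed less and did not pass in the raw gene-body table (edgeR adjusted p = 0.079 and 0.22). Il1a (-4.33) and Il18 (-1.18) were the members called lower, so the IL-1 family went in both directions; they were chosen after their values were seen.

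**Figure D4:**
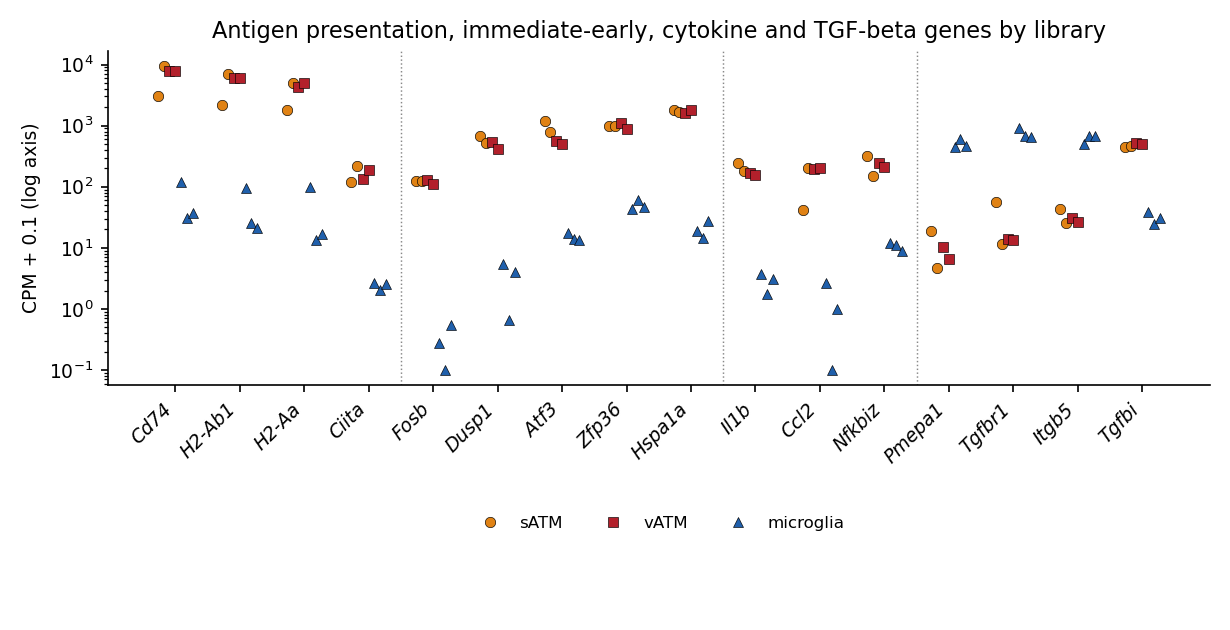
CPM + 0.1 on a log axis (y) of genes (x) for antigen presentation, immediate-early and heat-shock response, inflammation and TGF-beta signalling, separated by dotted lines; each point is 1 library, circles sATM, squares vATM, triangles microglia. Fosb lies at 109 to 130.1 CPM in fat and at or below 0.456 CPM in microglia, while Pmepa1, Tgfbr1 and Itgb5 lie higher in microglia.

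Interferon-stimulated genes had 12 of 25 members higher in fat, 48% against 8.01% of all genes tested, and none lower, with a median of 1.24. Ifitm3, a membrane protein that blocks viral entry, was at 1081 and 1135 CPM in sATM, 665 and 623 CPM in vATM and 38.9, 22.5 and 36.5 CPM in microglia (4.69 ± 0.27), with sATM above vATM. Ifitm2, its neighbour, was at 207 and 298 CPM in sATM, 184 and 195 CPM in vATM and 5.88, 0 and 4.86 CPM in microglia (5.80 ± 0.50). Oas2, which makes the activator of RNase L, was at 68.0 and 77.5 CPM in sATM, 41.9 and 50.3 CPM in vATM and 5.02, 0 and 2.58 CPM in microglia (4.34 ± 0.56). Ifit1, Ifit2, Ifit3 and Isg15 were not called. Toll-like receptor genes with Cd14 and their partners leaned to microglia, 7 lower in fat and 2 higher of 19 (36.8% and 10.5%, against 6.37% and 8.01%; median -0.66). Tlr3, the sensor of double-stranded RNA, was at 0.764 and 2.99 CPM in sATM, 2.15 and 1.23 CPM in vATM and 60.3, 45.7 and 42.3 CPM in microglia (-4.73 ± 0.45). Tlr8, an endosomal RNA sensor, was at 90.7 and 63.1 CPM in sATM, 51.6 and 49.2 CPM in vATM and 2.51, 5.89 and 0.912 CPM in microglia (4.43 ± 0.43). Tlr2, Tlr4 and Cd14 were not called.

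Genes of alternative activation, the response to IL-4 and IL-13, had 13 of 23 members higher in fat, 56.5% against 8.01% of all genes tested, and none lower, with a median of 4.86 (4.58 without the 2 listed at 0 in a group). Retnla, Fn1, Klf4 and Cd163, described above, were members. Ccl24, eotaxin 2, was at 12.2 and 64.2 CPM in sATM, 195 and 209 CPM in vATM and 3.55, 2.25 and 3.04 CPM in microglia (4.86 ± 0.45). Its 2 sATM libraries were the lowest of the fat libraries and above all microglia. Arg1 (3.30 ± 1.42) and Stat6 (0.30 ± 0.26) were not called, and neither was Il10, which was listed at 0 in a group.

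Lipid genes went in both directions. Of 33 tested, 15 were higher in fat and 7 lower (45.5% and 21.2%, against 8.01% and 6.37% of all genes tested), with a median of 1.75 (0.81 without the 3 listed at 0 in a group). Cd36, a fatty acid and oxidised lipid receptor, was at 173 and 216 CPM in sATM, 485 and 348 CPM in vATM and 4.41, 5.33 and 2.28 CPM in microglia (6.17 ± 0.35), highest in vATM. Lgals3, galectin 3, was at 527 and 1168 CPM in sATM, 759 and 659 CPM in vATM and 8.83, 7.58 and 12.8 CPM in microglia (6.31 ± 0.30). Plin2, which coats lipid droplets, was at 239.9 and 413 CPM in sATM, 241 and 297 CPM in vATM and 16.9, 11.8 and 19.5 CPM in microglia (4.2 ± 0.32), and Pltp, the phospholipid transfer protein, at 282 and 1272 CPM in sATM, 1323 and 1073 CPM in vATM and 37.7, 40.1 and 33.0 CPM in microglia (4.71 ± 0.36). Trem2, a receptor for lipids and apoptotic cells, was on the microglial side, at 15.3 and 46.2 CPM in sATM, 33.5 and 46.6 CPM in vATM and 767, 1129.9 and 961 CPM in microglia (-4.75 ± 0.34). Apoe was called higher in fat (2.94), at 2261 to 5376 RPKM there against 509.9 to 704 in microglia. Of 8 adipocyte markers tested, 4 were called higher in fat, and their sum was 48.3 to 89.6 CPM in fat and 7.70 to 15.7 in microglia. Among those called, Car3 was at 17.4 to 31.7 CPM in fat and 0.0865 to 1.67 in microglia (5.15 ± 1.15). Cfd was at 8.05 to 13.9 CPM in fat and 0 to 0.760 in microglia (5.35 ± 1.14). Fabp4 was at 10.3 to 36.7 CPM in fat and 0 to 2.25 in microglia (4.27 ± 0.99). Car3 did not pass in the raw gene-body table, and Fabp4 did not pass without microglia replicate 3. Adipoq, made by adipocytes, was at 0.255 to 3.95 CPM in fat and 0 to 0.0865 in microglia and was not called. The part of adipocyte RNA in the lipid result was not tested.

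Sterol synthesis differed less, with 5 of 20 members higher, 25% against 8.01% of all genes tested, and none lower (median 0.59). Insig1, which restrains the pathway when sterol is ample, was at 40.7 and 23.2 CPM in sATM, 27.5 and 21.0 CPM in vATM and 5.97, 5.05 and 3.34 CPM in microglia (2.53 ± 0.46). Srebf2, the factor that drives it, was at 23.2 and 20.3 CPM in sATM, 34.2 and 31.7 CPM in vATM and 4.93, 3.65 and 5.93 CPM in microglia (2.45 ± 0.42). None of the 5 called members passed in the raw gene-body table. Sqle (2.04 ± 0.50) and Cyp51 (1.88 ± 0.44) were near the threshold. Without vATM replicate 2 the adjusted p of Sqle was 0.080, and without microglia replicate 3 those of Sqle and Cyp51 were 0.068 and 0.068 (edgeR). Without microglia replicate 2 that of Sqle was 0.056. In glycolysis 5 of 21 members were higher and 4 lower. Pfkp, a phosphofructokinase, was at 25.7 and 56.9 CPM in sATM, 62.0 and 56.2 CPM in vATM and 7.61, 8.14 and 5.02 CPM in microglia (2.84 ± 0.38), and Hk2, a hexokinase, was lower in fat at 63.2 and 20.7 CPM in sATM, 27.8 and 19.3 CPM in vATM and 169, 105 and 111 CPM in microglia (-2.03 ± 0.40). Hk2 did not pass in the raw gene-body table (edgeR adjusted p = 0.57).

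Complement genes went in both directions. Of 23 tested, 8 were higher in fat and 5 lower (34.8% and 21.7%, against 8.01% and 6.37%; median 1.01). The 3 chains of C1q, which starts the classical pathway, were called lower in fat, with -1.72 for C1qa, -1.48 for C1qb and -2.06 for C1qc on the log2 scale. C1qb was still at 391 to 1917 RPKM in fat against 3219 to 6769.5 in microglia. Cfp, properdin of the alternative pathway, was at 117 and 726 CPM in sATM, 635 and 685 CPM in vATM and 1.90, 3.93 and 2.28 CPM in microglia (7.68 ± 0.49). C3, the central component, was at 163 and 48.4 CPM in sATM, 16.4 and 58.0 CPM in vATM and 3.63, 1.68 and 2.89 CPM in microglia (4.45 ± 0.56), with a wide spread within each depot and sATM replicate 1 the highest. Without that library its difference was 4.01 (edgeR adjusted p = 2.2e-04). C4b, which has the close copy C4a, was at 20.4 and 88.6 CPM in sATM, 91.7 and 101 CPM in vATM and 2.77, 1.96 and 4.10 CPM in microglia (4.59 ± 0.49). C5ar2, a receptor for C5a, was lower in fat at 10.2 and 13.3 CPM in sATM, 22.9 and 16.7 CPM in vATM and 80.5, 58.1 and 44.1 CPM in microglia (-1.99 ± 0.31) and did not pass in the raw gene-body table (-1.60).

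Scavenger and efferocytosis receptors also went both ways, 9 higher and 6 lower of 24, with a median of 1.08. Mertk, a kinase receptor for dying cells, was lower in fat at 4.33 and 22.5 CPM in sATM, 15.2 and 23.7 CPM in vATM and 213, 229 and 206 CPM in microglia (-3.72 ± 0.51), and its relative Axl was called higher (3.06, chosen after its value was seen). Mertk did not pass in the raw gene-body table (-2.40). Siglec and C-type lectin receptors had 18 members higher and 7 lower of 29 (62.1% and 24.1%, against 8.01% and 6.37% of all genes tested), with a median of 4.30. Clec4b1 was at 35.9 and 107 CPM in sATM, 126 and 97.5 CPM in vATM and 0.865, 1.96 and 0 CPM in microglia (6.74 ± 0.63), Clec12a at 92.4 and 98.3 CPM in sATM, 80.5 and 95.5 CPM in vATM and 2.51, 0 and 1.52 CPM in microglia (5.84 ± 0.45) and Clec4a1 at 245 and 189.9 CPM in sATM, 127 and 157 CPM in vATM and 8.22, 12.6 and 6.23 CPM in microglia (4.30 ± 0.27). Siglech, a sialic acid receptor of microglia and plasmacytoid dendritic cells, was at 3.82 and 8.39 CPM in sATM, 27.4 and 28.5 CPM in vATM and 1412, 856 and 1108 CPM in microglia (-6.40 ± 0.32). Siglech, Siglecf, Siglece, Cd22 and Cd33 were lower in fat and Siglec1 higher, and of the C-type lectins Clec5a and Clec1b were lower. Cd22 was at 4.84 and 3.22 CPM in sATM, 0.120 and 0 CPM in vATM and 6.06, 9.82 and 8.82 CPM in microglia. Its log2 difference from microglia was -1.03 for sATM and -6.71 for vATM, and it did not pass in the raw gene-body table. The Cd209 and Clec4 genes lie in clusters of similar sequence, and reads may be split between copies.

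Chemokine receptors that guide monocytes and microglia lay on opposite sides. Of 16 tested, 4 were higher in fat and 3 lower (25% and 18.8%, against 8.01% and 6.37%; median -0.86). Ccr2, the receptor of CCL2 and a marker of monocyte origin, was at 1031 and 1027 CPM in sATM, 961 and 688 CPM in vATM and 40.9, 3.93 and 10.9 CPM in microglia (5.59 ± 0.60). Cx3cr1, the fractalkine receptor, was at 326 and 53.9 CPM in sATM, 98.7 and 72.0 CPM in vATM and 5185, 4411 and 4286 CPM in microglia (-5.19 ± 0.41), with sATM replicate 1 the highest fat library. Cxcr4, a receptor for CXCL12, was at 293 and 55.4 CPM in sATM, 74.6 and 53.9 CPM in vATM and 1.90, 2.81 and 0.912 CPM in microglia (5.87 ± 0.54), again highest in that library. Of 12 monocyte markers tested, 8 were higher in fat and none lower, and their sum was 3331 to 4339 CPM in fat against 25.3 to 87.9 in microglia. Fn1, also listed under alternative activation, made up most of that sum in every fat library but sATM replicate 1. It was at 855 and 2614 CPM in sATM and 2684 and 2306 CPM in vATM. Ly6c2, which marks classical monocytes, was at 281 and 59.3 CPM in sATM, 2.87 and 2.46 CPM in vATM and 6.06, 3.09 and 4.26 CPM in microglia, and Plac8 at 296 and 50.6 CPM in sATM, 2.39 and 0.983 CPM in vATM and 4.15, 1.40 and 5.02 CPM in microglia. In vATM both were at the level of microglia. Both were highest in sATM replicate 1, the library that stands apart, and sATM replicate 2 also lay above vATM. Without replicate 1 the calls of Ccr2, Cx3cr1 and Cxcr4 held, with log2 fold changes of 5.64, -5.98 and 5.16, all with edgeR. The part of monocytes in these results was not tested.

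Integrins and adhesion molecules were close to even, 8 higher in fat and 9 lower of 25 (32% higher and 36% lower, against 8.01% and 6.37%; median -0.46). F11r, the junctional adhesion molecule JAM-A, was at 3.06 and 1.03 CPM in sATM, 0.958 and 0.614 CPM in vATM and 246, 452 and 375 CPM in microglia (-8.18 ± 0.47). Itga6, a laminin-binding integrin chain, was at 3.31 and 1.72 CPM in sATM, 4.31 and 2.58 CPM in vATM and 232, 174 and 176 CPM in microglia (-6.07 ± 0.32). Selplg, the ligand of P-selectin, was lower in fat but abundant there, at 333 and 380.3 CPM in sATM, 245 and 294 CPM in vATM and 2731, 4336 and 4036 CPM in microglia (-3.58 ± 0.23), and did not pass in the raw gene-body table (edgeR adjusted p = 0.055). Itga4, which binds VCAM-1, was called higher (5.17, chosen after its value was seen).

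Purine signalling genes had 4 members higher in fat and 6 lower of 18 (22.2% higher and 33.3% lower, against 8.01% and 6.37%; median -0.36). P2ry13, an ADP receptor beside P2ry12 in the genome, was at 14.3 and 3.22 CPM in sATM, 13.3 and 19.5 CPM in vATM and 1039, 986 and 855 CPM in microglia (-6.35 ± 0.36). Entpd1, the ectonucleotidase CD39, was at 31.1 and 67.5 CPM in sATM, 98.7 and 91.1 CPM in vATM and 557, 502 and 537 CPM in microglia (-2.96 ± 0.24), and Adora3, an adenosine receptor, at 1.02 and 3.45 CPM in sATM, 2.87 and 3.07 CPM in vATM and 104, 77.5 and 98.2 CPM in microglia (-5.12 ± 0.64). Adora2a, another adenosine receptor, was higher in fat at 14.5 and 6.21 CPM in sATM, 6.23 and 6.88 CPM in vATM and 0.173, 0 and 0 CPM in microglia (6.40 ± 1.43), and microglia held at most traces of it. Entpd1 and Adora2a did not pass in the raw gene-body table (-1.39 and 1.78). Ion channel genes had 5 higher and 7 lower of 19. Kcnd1, a voltage-gated potassium channel, was at 3.82 and 5.29 CPM in sATM, 5.27 and 6.02 CPM in vATM and 36.6, 62.6 and 67.2 CPM in microglia (-3.44 ± 0.43), and Kcnab2, a beta subunit, at 32.6 and 56.9 CPM in sATM, 45.6 and 44.4 CPM in vATM and 1.12, 0.842 and 0 CPM in microglia (5.99 ± 0.59).

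Iron and heme genes leaned to fat, 11 higher and 2 lower of 24 (45.8% higher and 8.33% lower, against 8.01% and 6.37%; median 0.96). Hmox1, which breaks down heme, was at 36.4 and 32.7 CPM in sATM, 35.9 and 21.9 CPM in vATM and 2.86, 2.81 and 2.74 CPM in microglia (3.49 ± 0.36), and Ftl1, the ferritin light chain, at 826 and 1532 CPM in sATM, 1312 and 1321 CPM in vATM and 167, 263 and 251 CPM in microglia (2.46 ± 0.26). Slc40a1, the iron exporter ferroportin, was lower in fat at 7.89 and 11.8 CPM in sATM, 51.4 and 71.6 CPM in vATM and 148, 161 and 162 CPM in microglia (-2.66 ± 0.25). The vATM libraries lay between sATM and microglia. Ftl1 and Slc40a1 did not pass in the raw gene-body table (3.32 and -2.21). Lysosomal genes leaned to microglia, 11 lower in fat and 3 higher of 33 (33.3% lower and 9.09% higher, a share near the 8.01% of all genes for higher and above the 6.37% for lower; median -0.56). Lgmn, an asparagine endopeptidase, was at 127 and 250.3 CPM in sATM, 235 and 246 CPM in vATM and 1755, 1818 and 1768 CPM in microglia (-3.06 ± 0.26), Ctsf at 1.53 and 4.02 CPM in sATM, 10.2 and 11.4 CPM in vATM and 70.5, 99.9 and 95.6 CPM in microglia (-3.97 ± 0.38) and Ctsl at 18.6 and 49.4 CPM in sATM, 37.6 and 39.9 CPM in vATM and 272, 187 and 262 CPM in microglia (-2.72 ± 0.31), all 3 lysosomal proteases. Ctsd, cathepsin D, was at 114 to 627 RPKM in fat and 2557 to 4789.8 in microglia, and was called lower on counts (-3.21). Lgmn and Ctsl did not pass in the raw gene-body table.

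Secreted matrix proteins and growth factors had 13 members higher in fat and 8 lower of 29 (44.8% higher and 27.6% lower, against 8.01% and 6.37%; median 1.04). Emilin2, a glycoprotein of elastic fibers, was at 307 and 168 CPM in sATM, 67.9 and 84.3 CPM in vATM and 4.41, 0.561 and 2.43 CPM in microglia (5.61 ± 0.41), with sATM above vATM. Mmp2, gelatinase A, was lower in fat at 1.02 and 1.38 CPM in sATM, 0.239 and 1.47 CPM in vATM and 25.2, 23.0 and 33.0 CPM in microglia (-4.70 ± 0.47; edgeR adjusted p = 0.066 in the raw gene-body table). Igf1, a growth factor of resident macrophages, was called higher (4.57), and Csf1 lower (-2.45), both chosen after their values were seen. Of 10 fibroblast markers tested, 3 were higher in fat and none lower, with a sum of 100.1 to 176 CPM in fat and 12.4 to 16.3 in microglia. Gsn, gelsolin, made up most of that sum in fat, at 56.8 and 126 CPM in sATM, 81.1 and 120.4 CPM in vATM and 5.62, 3.93 and 4.41 CPM in microglia, while Col1a1, the main collagen chain, was at 1.56 to 6.88 CPM in fat and 2.42 to 4.21 in microglia and not called. The part of fibroblasts in the matrix result was not tested.

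The genes of norepinephrine uptake, breakdown and sensing, the subject of the series, gave 1 call in each direction among 14 tested, which is close to the shares over all genes (median -0.37). Aldh2, a mitochondrial aldehyde dehydrogenase, was at 43.8 and 22.9 CPM in sATM, 50.8 and 35.9 CPM in vATM and 5.45, 3.37 and 2.28 CPM in microglia (3.32 ± 0.47; edgeR adjusted p = 0.067 in the raw gene-body table). Adrb1, the beta 1 adrenergic receptor, was lower in fat at 12.5 and 2.64 CPM in sATM, 12 and 9.71 CPM in vATM and 22.4, 29.5 and 22.5 CPM in microglia (-1.48 ± 0.44; edgeR adjusted p = 0.030). The call ended without microglia replicate 1 (0.055), 2 (0.10) or 3 (0.062), without sATM replicate 2 (0.092) and without vATM replicate 1 (0.085) or 2 (0.095). The transporter Slc6a2 and Maoa were not called. The 19 cell cycle genes tested had a median of 1.66, against -0.29 over all genes tested. Only Mcm6, part of the replicative helicase, was called, at 14.8 and 53.6 CPM in sATM, 23.8 and 37.4 CPM in vATM and 10.0, 1.68 and 10.2 CPM in microglia (2.11 ± 0.50). That is 5.26% of the list, near the 8.01% of all genes called higher, so the count is no result about the list. Without sATM replicate 2 its adjusted p was 0.12 and without vATM replicate 2 0.065 (edgeR).

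Markers of the remaining cell types gave calls in some lists, to be set against 8.01% higher and 6.37% lower of all genes tested. The T and NK cell list had 22.2% called higher, and the astrocyte list 22.2% lower. The eosinophil list had 14.3% higher and 28.6% lower, and the type 2 innate lymphoid list 28.6% and 14.3%. Called lower were 1 of 8 oligodendrocyte, 1 of 12 sympathetic neuron and Schwann cell, and 1 of 2 mesothelial genes. None of 14 central neuron, 7 endothelial, 7 mural, 6 neutrophil, 6 erythroid or 2 mast cell and basophil genes tested was called. Of 9 astrocyte genes, Slc1a3 (-7.72) and Slc1a2 (-3.76), both glutamate transporters, were lower in fat. Slc1a3 was at 133, 78.0 and 74.3 CPM in microglia, where Aqp4, a defining astrocyte gene, was at 0.0865, 5.05 and 0. Of 9 T and NK cell genes Cd2, an adhesion receptor, was higher in fat at 9.42 and 43.2 CPM in sATM, 54.7 and 44.6 CPM in vATM and 0.260, 0 and 0.152 CPM in microglia. Cd4 (2.0 ± 0.61) was also higher in fat, while Cd3e was at 0 to 1.78 CPM there. With a replicate block the call of Cd4 ended (edgeR adjusted p = 0.069), and that of Dpp4, a fibroblast marker higher in fat (3.81 ± 1.08; 0.071 with the block). Cd4 also did not pass when 1 fat library, microglia replicate 1 or 2, or 1 spleen library was left out (edgeR adjusted p from 0.064 to 0.19), nor with the 7 libraries alone (0.11). Dpp4 did not pass when any 1 of the 7 compared libraries other than sATM replicate 2 was left out (edgeR adjusted p from 0.052 to 0.085). Of 7 eosinophil genes, Ear2, a ribonuclease of a family of close copies, was higher in fat at 117 and 338 CPM in sATM, 229.6 and 338 CPM in vATM and 2.42, 2.81 and 0.608 CPM in microglia, Siglecf (-3.19) and Ccr3 (-2.22) were lower, and the granule genes Prg2 and Ear1 were not called. Of 7 genes of type 2 innate lymphoid cells, Il1rl1 (2.81) and Areg were higher in fat, Areg being listed at 0 in microglia, and Il7r (-2.39) was lower. In the raw gene-body table Slc1a2, Siglecf, Ccr3, Il1rl1, Areg and Il7r did not pass. Ccr3 was at 7.38 and 0.690 CPM in sATM, 0.359 and 0 CPM in vATM and 3.81, 6.17 and 2.28 CPM in microglia. Its log2 difference from microglia was -0.13 for sATM and -4.31 for vATM, so the call rested on vATM. The call of Ccr3 also ended without microglia replicate 1 (edgeR adjusted p = 0.085) or 2 (0.14), and without replicate 2 of sATM or vATM. It ended as well with the 7 libraries alone, and without any single ganglion or spleen library.

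**Figure D5:**
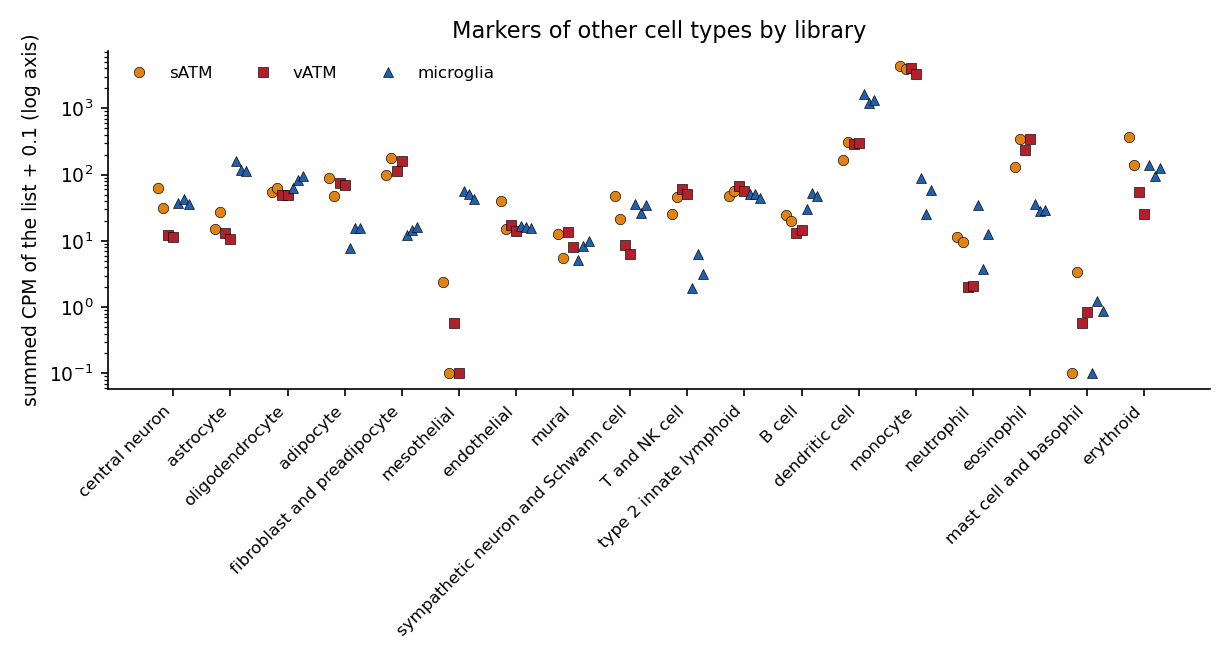
Summed CPM + 0.1 on a log axis (y) of the tested markers of 18 other cell types (x) in each library; circles sATM, squares vATM, triangles microglia. The monocyte sum separates fat (3331 to 4339 CPM) from microglia (25.3 to 87.9 CPM), and Fn1 makes up most of it in every fat library but sATM replicate 1. The adipocyte and fibroblast sums separate the sides at lower levels, and the dendritic cell sum is higher in microglia, where Siglech makes up most of it.

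The 2 fat depots, which the comparison averages, differed from each other in few genes. Between sATM and vATM 6 genes were called (0.0392% of those tested), with 569 at an unadjusted p below 0.05 in the edgeR test. None of the 6 passed without sATM replicate 1 or without either vATM library, where no gene was called and 218 to 324 had an unadjusted p below 0.05. When sATM replicate 2 was left out, 68 genes were called, 4 of the 6 among them. In each of these fits 1 depot has a lone library, which is assumed to vary like the other groups. These refits were chosen after seeing the data. Each had its own position against microglia. Gngt2, a G protein gamma subunit, was at 151 and 24.4 CPM in sATM, 4.31 and 3.81 CPM in vATM and 66.1, 82.5 and 91.4 CPM in microglia. Its sATM replicate 1 lay above microglia, replicate 2 below, and vATM far below. With Ly6c2 and Plac8, described above, it was higher in sATM than in vATM. Slco2b1, an organic anion transporter used as a microglial marker, was at 30.3 and 44.5 CPM in sATM, 131 and 137 CPM in vATM and 577, 667 and 619 CPM in microglia, lower in every fat library and lowest in sATM. Pxdc1, a gene of unsettled function, was at 0.764 and 0.575 CPM in sATM, 10.1 and 5.65 CPM in vATM and 10.6, 13.2 and 10.9 CPM in microglia, so that vATM replicate 1 approached the microglial level and sATM did not. Slc40a1, described above, had the same order of sATM, vATM and microglia. All 6 genes were also called between the mean of fat and microglia, where Gngt2 had -2.08 ± 0.43, Pxdc1 -2.34 ± 0.38 and Slco2b1 -3.13 ± 0.22. For Gngt2, Ly6c2 and Plac8 that mean joins depots that lay on different sides of, or at, the microglial level.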

How the data were processed

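Low-input RNA-seq of sorted macrophages gave 15 libraries in 6 groups, grouped by the submitters' titles. The authors deposited raw counts per gene body, estimated counts after removal of DNA contamination, which were rounded here to whole numbers, and RPKM values. The submitters' processing notes name STAR, HOMER and mm10, while versions, strand and the removal method were not stated in what was used here, so reads of overlapping genes cannot be told apart. Names that a spreadsheet had turned into dates were restored (25 in the corrected table). A gene listed at 0 may be a failed estimate, so no fold change is given where sATM, vATM or microglia is at 0 throughout.

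The corrected counts were filtered (filterByExpr, minimum count 10), TMM-scaled and fitted in edgeR 4.0.16 (R 4.3.3) with 1 mean per group over 15 libraries (9 residual degrees of freedom, common biological coefficient of variation 0.680). The contrast was the mean of sATM and vATM minus microglia, tested by quasi-likelihood and adjusted over 15289 genes by Benjamini-Hochberg, and a call needed an adjusted p below 0.05 and a log2 fold change of at least 1. Fold changes are log2 with the SE, CPM values come from the same scaled libraries, and 3 counts correspond to 0.260 to 0.842 CPM. The code was tested on simulated data. Alternatives used limma 3.58.1, DESeq2 1.42.0, other filters and scalings, the deposited RPKM and raw counts, and each library left out.

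Named genes are the 15 with the largest calls in each direction (mean of at least 30 CPM, no overlap, named coding genes), the markers, Adgre1 and Ptprc, up to 5 called genes of each of 28 lists and 3 of each of 18 lists of other cells by smallest p, and the 10 highest by RPKM on each side. Genes named beyond this were chosen after their values were seen. Members and lists were chosen with earlier results of these data known. Deviations of same-numbered libraries from their group means correlated at 0.16 to 0.49 in the 3 groups compared, although groups of 2 libraries give mirrored deviations. The numbers come from the titles, and the labels do not say that they mark a shared batch. They were taken as pairing the libraries for an alternative fit with a replicate block only. Olfactory receptor reads were lowest in replicate 1 of each compared group, and the part of DNA content in these correlations was not tested. Same-numbered nerve fiber and microglia libraries, outside the comparison, correlated at -0.37 and -0.32. In nerve fibers these reads were higher in replicate 1, at 1233 RPM against 686 RPM in replicate 2. Ganglion replicate 2 correlated at -0.18, -0.045 and -0.14 with replicate 2 of microglia, sATM and vATM. Ganglion replicates 1 and 3 correlated at 0.48 and 0.13 with the same-numbered microglia libraries. The block was fitted over all 15 libraries and, as a choice made after seeing the data, over the 7 compared. Sequences are from RefSeq. Listed genes missing from the corrected table were not analysed here, and a few genes are not reported here.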

Additional observations from a re-analysis of the deposited data

Results flagged for a closer look

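In 6 genes the fat depots differed from each other when tested with edgeR (sATM minus vATM, Benjamini-Hochberg adjusted over all genes), so that their differences from the shared microglia libraries differed too. Plac8 had a log2 difference of 6.66 ± 0.78 (SE, adjusted p = 0.016), Ly6c2 5.98 ± 0.77 (0.023) and Gngt2 4.42 ± 0.58 (0.022), each higher in both sATM libraries than in both vATM libraries. Slc40a1 had -2.62 ± 0.34 (0.016), Slco2b1 -1.84 ± 0.29 (0.044) and Pxdc1 -3.57 ± 0.57 (0.029), each lower in both sATM libraries. The first 3 were highest in sATM replicate 1, the library with the high Ace and erythroid values, and the part of those cells in the difference was not tested. Without that library the differences were 5.04 for Plac8, 4.59 for Ly6c2 and 2.70 for Gngt2, each with an edgeR adjusted p of 0.072, which no longer passed. The calls of all 6 genes also ended without either vATM library, with edgeR adjusted p of 0.25 or more, and those of Slco2b1 and Pxdc1 without sATM replicate 2. The 6 differences kept their sign in each of these fits.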

How the results depend on the processing

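Of 161 named calls, 94 held in each of the 28 alternatives that tested them, 47 were lost in 1 or 2, and 19 in 3 or more. The raw gene-body counts lost 64, RLE scaling none, DESeq2 1 (Upk1b) and voom with quality weights 1 (Cd4). Against 1225 genes higher and 974 lower, the raw counts gave 372 and 125, voom 1882 and 1676, log2(RPKM + 0.1) without a filter 793 higher, and log2(RPKM + 1) 1631 lower. In the raw counts the sign turned for Hsp90aa1 (4.18) and Itga9 (0.68), both listed at 0 in fat. The cause was not tested. With a replicate block 1137 genes were higher and 922 lower, and 3 named calls ended, among them Cd4 and Dpp4 (edgeR adjusted p = 0.069 and 0.071); the block changed no other named call. Over the 7 libraries alone it gave 1240 and 1082, and 8 named calls ended. Leaving out 1 library gave 952 to 1517 genes higher and 553 to 1195 lower, 739 to 949 and 334 to 568 for sATM alone, and 617 to 985 and 199 to 529 for vATM alone, and 0 to 68 genes called between the depots. Depth limits low genes: a gene under 3 counts in a library, 0.260 to 0.842 CPM, was not distinguishable from 0, and such intervals cover counting error only.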
